A study of Homo sapiens with 4 samples.

Results

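The table of A375 libraries listed 112 long non-coding RNAs (lncRNAs) that are named as antisense to another gene, that is, whose symbol is the gene's symbol followed by -AS or by -AS and a digit. They were 110 rows of type lncRNA and 2 of type antisense_RNA (APOA1-AS and BACE1-AS), out of 169 rows of these 2 types and 2864 rows with values. The sense gene of 110 of them was also in the table, which gave 103 distinct sense genes, all protein-coding, while C20orf166-AS1 and C9orf41-AS1 had no sense gene there. A375 is a human melanoma line that carries an activating BRAF mutation, and vemurafenib inhibits the mutant BRAF kinase. The 4 libraries of total RNA came from untreated parental A375 cells (A375P), from A375R, the strain held constantly in vemurafenib at rising concentrations until it was resistant, and from A375 cells given 1‰ DMSO (A375+DMSO) or 2 μM vemurafenib (A375+VEM) for 48 h. The study set A375R against A375P for persistent resistance (the resistance comparison) and A375+VEM against A375+DMSO for the acute response (the acute comparison). The libraries without vemurafenib, A375+DMSO against A375P, are set side by side here as the solvent comparison, and each ratio has the first-named library on top. The labels give no culture time for A375P, so in this comparison the solvent, the time and the culture itself cannot be told apart. Where 4 values of a gene follow each other, they belong to A375P, A375R, A375+DMSO and A375+VEM in that order. A375R is a single selected strain, the labels give the genotype of the cells as wild type, and all libraries carry the same batch label. With 1 library per condition there is no replicate check and no p-value for any difference, and all intervals here compare libraries and cover counting error only.

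Antisense transcripts are made from the opposite DNA strand of a gene, and many start at or near the gene's own promoter and run away from it (head to head), while others converge on its end (tail to tail) or lie inside it. Some are known to act on their partner, by covering its mRNA, by bringing chromatin proteins to the locus or by the passage of the polymerase itself, and for many no function is known. In melanoma cells, blocking BRAF shuts down the MAPK cascade and changes the transcription of many genes, so an antisense lncRNA and its sense gene can change together, apart or in opposite directions.

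By the positions in the table (hg19 per the labels), all 110 lncRNAs with a sense gene in the table lay on the strand opposite to it. The gene bodies overlapped in 87 pairs and did not in 23. Of the 110 pairs 49 were head to head, 36 had the lncRNA within the sense gene, 24 were tail to tail, and ALOX12-AS1 was the 1 lncRNA that spanned its sense gene. In the GENCODE release 29 annotation of GRCh38, 99 of the pairs were found by name, and in 62 of these some exon bases of the lncRNA fell within exons of the sense gene. Whether reads were counted by strand is not given in the sources used here, so in such pairs reads of the 2 genes cannot be told apart over the shared bases.

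Of the lncRNAs described in full below, 8 were on opposite strands with a start within 1 kb of the sense gene's start in the table. The windows from 250 bases before to 50 bases after the start of 6 of these lncRNAs are printed here from RefSeq (GRCh38.p14), 5′ to 3′ on the strand of the lncRNA. Capitals mark the bases that are also in the window of the sense gene.
BAIAP2-AS1 at chr17:81034670-81034969, minus strand: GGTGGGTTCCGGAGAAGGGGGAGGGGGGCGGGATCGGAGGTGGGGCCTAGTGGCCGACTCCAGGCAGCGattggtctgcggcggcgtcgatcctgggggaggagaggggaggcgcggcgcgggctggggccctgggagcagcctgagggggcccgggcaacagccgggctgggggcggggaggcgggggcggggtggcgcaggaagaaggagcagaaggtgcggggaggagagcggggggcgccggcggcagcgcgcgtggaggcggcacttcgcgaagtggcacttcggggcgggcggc
BOLA3-AS1 at chr2:74147731-74148030, plus strand: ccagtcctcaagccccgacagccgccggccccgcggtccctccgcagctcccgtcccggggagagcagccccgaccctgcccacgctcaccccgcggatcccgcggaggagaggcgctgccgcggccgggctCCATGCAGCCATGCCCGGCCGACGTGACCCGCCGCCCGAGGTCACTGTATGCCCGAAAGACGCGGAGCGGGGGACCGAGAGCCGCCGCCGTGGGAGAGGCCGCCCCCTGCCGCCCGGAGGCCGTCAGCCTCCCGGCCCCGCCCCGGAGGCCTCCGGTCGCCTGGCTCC
BSN-AS2 at chr3:49554317-49554616, minus strand: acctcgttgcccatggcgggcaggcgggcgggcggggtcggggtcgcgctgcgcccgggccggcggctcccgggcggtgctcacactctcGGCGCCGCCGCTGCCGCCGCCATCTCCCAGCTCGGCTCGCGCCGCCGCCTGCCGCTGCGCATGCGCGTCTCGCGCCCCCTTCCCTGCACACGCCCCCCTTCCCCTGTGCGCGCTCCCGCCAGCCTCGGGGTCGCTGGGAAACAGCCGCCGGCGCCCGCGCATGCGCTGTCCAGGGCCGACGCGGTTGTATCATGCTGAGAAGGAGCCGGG
ARHGAP5-AS1 at chr14:32076650-32076949, minus strand: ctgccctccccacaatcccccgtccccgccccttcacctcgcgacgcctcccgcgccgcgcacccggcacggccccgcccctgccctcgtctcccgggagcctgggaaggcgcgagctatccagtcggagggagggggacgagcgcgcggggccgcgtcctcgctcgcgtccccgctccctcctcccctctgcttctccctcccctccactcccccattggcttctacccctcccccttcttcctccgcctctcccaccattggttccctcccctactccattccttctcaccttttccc
BVES-AS1 at chr6:105137437-105137736, plus strand: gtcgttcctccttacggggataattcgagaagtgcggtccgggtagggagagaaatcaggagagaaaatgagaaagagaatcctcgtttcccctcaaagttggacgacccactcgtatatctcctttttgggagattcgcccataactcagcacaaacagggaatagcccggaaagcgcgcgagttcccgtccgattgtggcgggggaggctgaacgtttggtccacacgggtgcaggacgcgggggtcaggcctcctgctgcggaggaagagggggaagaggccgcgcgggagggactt
BOK-AS1 at chr2:241559094-241559393, minus strand: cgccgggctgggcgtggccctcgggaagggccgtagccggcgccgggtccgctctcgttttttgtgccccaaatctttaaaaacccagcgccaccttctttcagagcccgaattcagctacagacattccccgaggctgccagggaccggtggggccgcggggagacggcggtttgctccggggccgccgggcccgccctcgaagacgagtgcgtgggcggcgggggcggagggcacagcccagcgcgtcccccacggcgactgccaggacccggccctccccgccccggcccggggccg

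The RefSeq starts of BOLA3-AS1 and BOLA3 were 69 bases apart and shared 168 bases of their windows, those of BSN-AS2 and BSN were 111 bases apart and shared 210, and those of BAIAP2-AS1 and BAIAP2 were 432 bases apart and shared 69. In the other pairs printed no base was shared, and the starts were 605 bases apart for ARHGAP5-AS1, 530 for BVES-AS1 and 398 for BOK-AS1. All 6 windows had more CpG than the median of all 34961 RefSeq windows, with 24 to 47 each against 14. Of all windows, 66.0% had fewer CpG than that of BVES-AS1, the lowest of the 6, and 97.6% fewer than that of BSN-AS2, the highest. RefSeq windows were found for 19 of the 30 lncRNAs described in full, 20 windows in all since ARRDC1-AS1 has a pair of starts. Searched on both strands, the AP-1 motif TGANTCA was in 0 of the 20 windows against 7.68% of all windows. The TEAD motif GGAATG was in 5 windows (A2M-AS1, ALOX12-AS1, ARHGAP5-AS1, ARRDC1-AS1 and BOK-AS1) against 14% of all, and the E-box CACGTG was in those of ADORA2A-AS1 and ALOX12-AS1 against 7.27% of all. Each is a match of letters in a window of fixed length and not a site.

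The antisense lncRNAs were scarce. No read was counted in any library for 22 of the 112, and 44 others had reads but stayed under 1 TPM (reads per gene length, scaled to 1 total for every library by the authors) in every library, with at most 39 reads in a library (ASMTL-AS1). The remaining 46 reached 1 TPM in at least 1 library, and all of these had their sense gene in the table. The number at 1 TPM or more was 34, 30, 35 and 42 in A375P, A375R, A375+DMSO and A375+VEM. The reads of all members summed to 3478, 3875, 4446 and 5023 in these libraries in the same order, out of 1891215 to 2054277 reads in the part of the gene list analysed here. Their summed level was 219, 253, 286 and 359 TPM. The summed level of the 57 lncRNAs that are not named as antisense was instead highest in A375P and lowest in A375+VEM. Like that of the members, it was higher in A375+DMSO than in A375R. It went from 701 TPM in A375P to 534, 564 and 450 in A375R, A375+DMSO and A375+VEM. How far single genes carry that sum was not tested. The summed level of the sense genes was 3221, 2907, 2736 and 2868 TPM.

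A few lncRNAs carried most of the difference in the summed level of the members. ARRDC1-AS1, ARHGAP5-AS1, BAIAP2-AS1, ABHD11-AS1 and AGAP2-AS1 together accounted for 102 of the 139 TPM by which A375+VEM lay above A375P. Without these 5 the sums were 164, 169, 180 and 201 TPM, still highest with vemurafenib. ARRDC1-AS1 had the highest level of all members in each library, at 29.8, 32.3, 41.4 and 62.4 TPM.

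**Figure D1:**
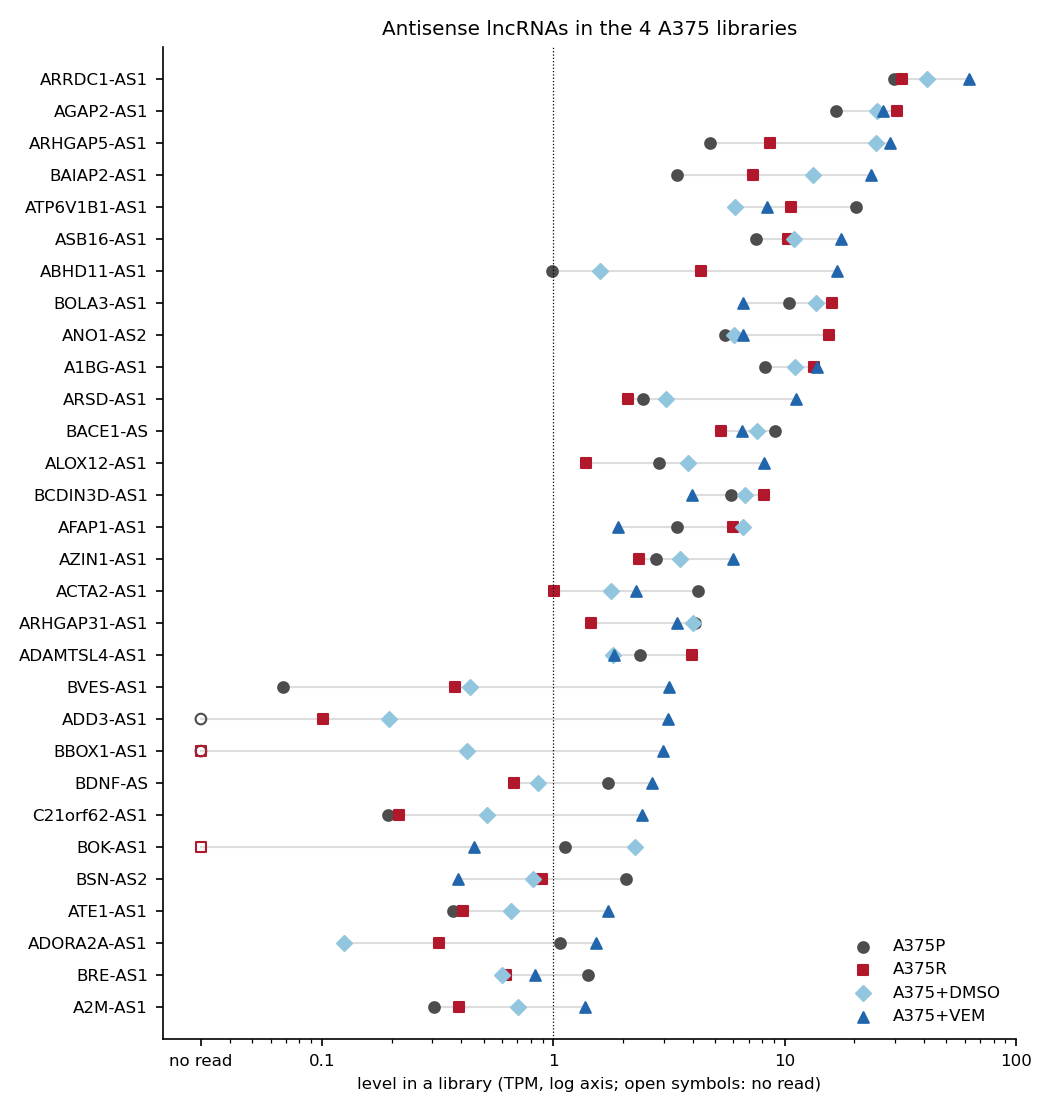
Level of each of the 30 antisense lncRNAs described in full, in TPM on a log axis, with 1 symbol per library and open symbols where no read was counted. ARRDC1-AS1 lies at the top with 29.8 to 62.4 TPM, and BVES-AS1, ADD3-AS1 and BBOX1-AS1 reach 1 TPM in A375+VEM and in no other library.

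Most lncRNAs lay far below their sense gene. Among pairs with at least 1 of the genes at 1 TPM or more, the lncRNA was above the sense gene in 6 of 76 in A375P, 4 of 72 in A375R, 4 of 76 with DMSO and 9 of 78 with vemurafenib. Where both were at 1 TPM or more, the median ratio of lncRNA to sense gene was 0.238, 0.252, 0.222 and 0.225 over 34, 30, 35 and 40 pairs, which are not the same pairs in each library, so these medians do not compare the libraries. In 4 pairs the lncRNA was at 1 TPM or more and above the sense gene in every library. They were AGAP2-AS1 (AGAP2 encodes a GTPase-activating protein of Arf proteins), ASB16-AS1, ATP6V1B1-AS1 and ATP2A1-AS1 (ATP2A1 encodes a calcium pump of the sarcoplasmic reticulum). ATP2A1-AS1 stood at 12.4, 11.7, 21.8 and 17.9 TPM in A375P, A375R, A375+DMSO and A375+VEM, where ATP2A1 stood at 1.89, 1.19, 1.71 and 6.

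A lncRNA was counted as changed when its ratio of (TPM + 0.1) between 2 libraries was past 1.5-fold, among those at 1 TPM or more in at least 1 of them. On this scale the change of low genes is understated. In the resistance comparison, 9 of 35 lncRNAs were higher and 10 lower, where 26.8% of all 1689 features were higher and 17.5% lower. In the acute comparison, 16 of 44 were higher and 5 lower, beside 26.5% and 19.7% of 1784 features. Between the libraries without vemurafenib, in the solvent comparison, 13 of 39 were higher and 6 lower, beside 26.8% and 18.9% of 1720 features. So as many antisense lncRNAs differed between the untreated and the solvent library (19) as between A375R and A375P (19), and nearly as many as with acute vemurafenib (21). This was not particular to them. Over all features the numbers were also close, at 786 of 1720 in the solvent, 748 of 1689 in the resistance and 825 of 1784 in the acute comparison. The median log2 ratio of the lncRNAs was 0.08 in the resistance comparison (0.10 over all features), 0.26 in the acute comparison (0.11) and 0.34 in the solvent comparison (0.09). The 95% interval of the ratio, exact Clopper-Pearson on the reads, left out 1 for 16 of the 19 in the resistance comparison, 18 of the 21 in the acute comparison and 13 of the 19 in the solvent comparison. Of the lncRNAs not named as antisense, 8 of 24 were higher and 6 lower in the resistance comparison, and 8 of 29 higher and 8 lower in the acute comparison. Their median log2 ratio was 0.02, 0.30 and -0.01 in the resistance, acute and solvent comparisons. For the sense genes of the members it was 0.11, 0.25 and 0.03. In the acute comparison the median of the antisense lncRNAs thus lay between these.

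**Figure D2:**
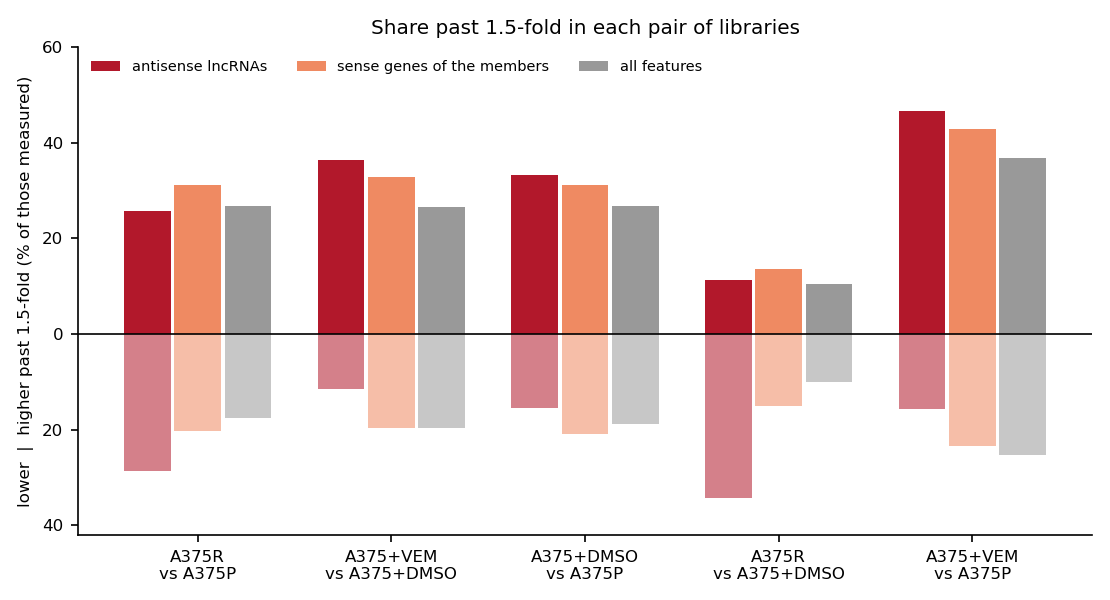
Percent of the antisense lncRNAs, of their sense genes and of all features that were past 1.5-fold, in each of 5 pairs of libraries, with higher above the line and lower below it. The bars are counts over genes within single libraries and have no error bars. In A375R against A375+DMSO 34.3% of the antisense lncRNAs were lower, beside 9.99% of all features and 20% of the lncRNAs not named as antisense, which are not drawn.

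The library chosen as the control mattered for A375R. Set against A375+DMSO, 4 of 35 lncRNAs were higher and 12 lower in A375R, beside 10.5% and 9.99% of 1702 features. The interval of 5 of the 12 includes 1, and of the lncRNAs not named as antisense 2 of 25 were higher there and 5 lower. Of the 19 lncRNAs that were past 1.5-fold against A375P, 7 were past it in the same direction against A375+DMSO (ABHD11-AS1, ACTA2-AS1, ADAMTSL4-AS1, ALOX12-AS1, ANO1-AS2, ARHGAP31-AS1 and BOK-AS1), 4 kept the direction within 1.5-fold, and 4 turned, 3 of them past 1.5-fold. Those 3 were BAIAP2-AS1 and ARHGAP5-AS1, higher than A375P and lower than A375+DMSO, and ATP6V1B1-AS1, the reverse. The other 4 of the 19 (ADORA2A-AS1, BDNF-AS, BRE-AS1 and BSN-AS2) were under 1 TPM in both A375R and A375+DMSO. The acute response depended less on it. Set against A375P, 21 of 45 lncRNAs were higher in A375+VEM and 7 lower, beside 36.9% and 25.3% of 1782 features. Of the 21 lncRNAs past 1.5-fold against A375+DMSO, 18 were past it in the same direction against A375P, 2 kept the direction within 1.5-fold (ADORA2A-AS1 and BCDIN3D-AS1), and BIRC6-AS2, with at most 6 reads in a library, was under 1 TPM in both A375+VEM and A375P. Over all features, 748 of 1689 were past 1.5-fold in A375R against A375P and 349 of 1702 against A375+DMSO. For A375+VEM it was 825 of 1784 against A375+DMSO and 1107 of 1782 against A375P. How many of all features kept their direction with the other control was not counted. The comparisons with a library in common are not independent of each other.

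**Figure D3:**
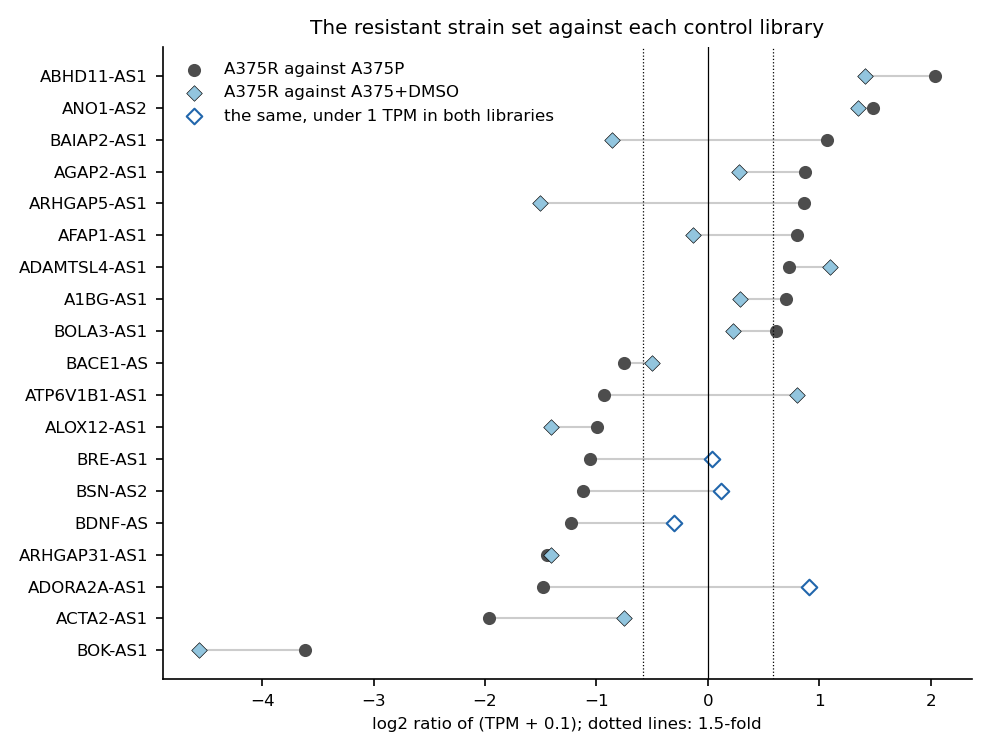
Log2 ratio of (TPM + 0.1) of the 19 antisense lncRNAs past 1.5-fold in the resistance comparison (circles), with the ratio of the same lncRNA in A375R against A375+DMSO (diamonds, open for the 4 under 1 TPM in both of these libraries). ARHGAP5-AS1 goes from 0.86 to -1.50 and BAIAP2-AS1 from 1.07 to -0.86, while ANO1-AS2, ABHD11-AS1 and ARHGAP31-AS1 keep their side with either control.

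The pairs went the same way a little more often than not. Both genes of a pair were measured in 35 pairs of the resistance comparison, and 21 of these had log2 ratios of the same sign. The other gene pairs on opposite strands in the table, 61 in all that overlap or start within 1 kb of each other, did so at a share of 59%, or 23 of 39. In the acute comparison it was 24 of 42, beside 60.5% of the other pairs (26 of 43), and in the solvent comparison 23 of 39, beside 63.4% (26 of 41). The share of same-sign pairs was thus near that of other neighbours on opposite strands in each comparison. Both genes were past 1.5-fold in the same direction in 9 pairs of the resistance comparison, beside 15.4% of the other pairs (6 of 39), and in opposite directions in 2, beside 7.69% (3 of 39). In the acute comparison the counts were 9 and 2, beside 18.6% (8 of 43) and 0% of the other pairs. Between the libraries without vemurafenib, in the solvent comparison, they were 7 and 3, beside 6 and 4 of the 41 other pairs.

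By arrangement, tail-to-tail pairs had the same sign in 10 of 12, 9 of 13 and 9 of 12 pairs in the resistance, acute and solvent comparisons. Head-to-head pairs did so in 7 of 15, 11 of 20 and 9 of 18, and pairs with the lncRNA within the sense gene in 4 of 7, 3 of 8 and 4 of 8. The count of same-sign pairs among those whose exons share bases in GRCh38 was 17 of 27, 19 of 34 and 20 of 30. Among pairs found there with no shared exon base it was 1 of 4, 4 of 6 and 1 of 5. The part that shared bases played in these counts was not tested.

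**Figure D4:**
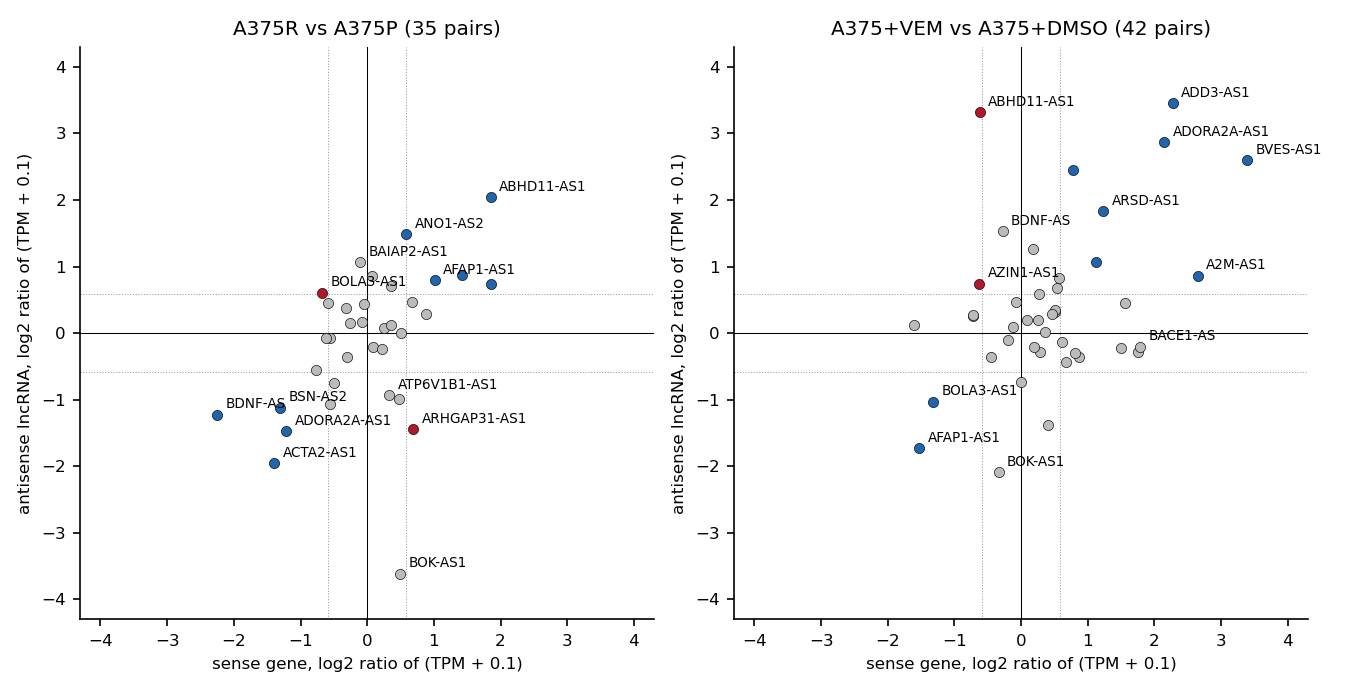
Log2 ratio of (TPM + 0.1) of the antisense lncRNA against that of its sense gene, 1 point per pair, for the resistance comparison and the acute comparison. Blue points have both genes past 1.5-fold in the same direction, red points in opposite directions, grey points are the other pairs, and dotted lines mark 1.5-fold. Blue points number 9 in each panel and red points 2.

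AFAP1-AS1 (chr4:7755817-7780655, plus strand) lies tail to tail with the gene of an actin filament-associated protein and moved with it in both comparisons. AFAP1-AS1 stood at 3.42, 6.01, 6.59 and 1.91 TPM, from 103 to 358 reads. AFAP1 stood at 54.0, 109, 113 and 39.1 TPM in the same order. Both genes were thus highest in A375R and A375+DMSO and lowest in A375+VEM. The lncRNA was 1.76-fold higher in the resistance comparison (95% interval 1.47 to 2.11), and its ratio was 0.290 in the acute comparison (0.230 to 0.362). The quotient of lncRNA to sense gene changed by a factor of 0.868 (0.721 to 1.05) and 0.835 (0.661 to 1.05) in these comparisons, with intervals that include 1, and by 0.771 (0.598 to 0.989) in A375+VEM against A375P. In GRCh38, 7.70% of the exon bases of AFAP1-AS1 lay in exons of AFAP1.

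ADORA2A-AS1 (chr22:24825174-24891042, minus strand) also followed its partner, an adenosine receptor gene, tail to tail. It had 37, 10, 4 and 49 reads, or 1.07, 0.321, 0.124 and 1.53 TPM. ADORA2A stood at 3.28, 1.35, 0.846 and 4.09 TPM, the same order of libraries. Its exons held 7.08% of the exon bases of ADORA2A-AS1 in GRCh38. The ratio of the lncRNA was 0.299 in the resistance comparison (0.133 to 0.614) and 12.3 in the acute comparison (4.52 to 47.1). Against A375P, however, the log2 ratio of A375+VEM was 0.48, as A375+DMSO had the lowest level of the 4 libraries.

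BVES-AS1 (chr6:105585562-105617820, plus strand) and BVES, a cAMP-binding Popeye-domain gene, start 513 bases apart in the table and do not overlap there. Exons of BVES held 3.42% of the exon bases of BVES-AS1 in GRCh38. BVES-AS1 had 1, 5, 6 and 43 reads in A375P, A375R, A375+DMSO and A375+VEM, or 0.068, 0.376, 0.437 and 3.16 TPM. BVES stood at 2.30, 4.95, 5.16 and 55.0 TPM. Both were highest in A375+VEM by a wide margin, the lncRNA 7.22-fold above A375+DMSO (3.06 to 20.7) and BVES 3.39 higher on the log2 scale. ADD3-AS1 (chr10:111705317-111768139, minus strand), head to head with the gene of the membrane skeleton protein gamma-adducin, had 0, 1, 2 and 32 reads, and ADD3 stood at 26, 55.1, 59.0 and 286 TPM. The ratio of ADD3-AS1 in the acute comparison was 16.1 with an interval of 4.11 to 139, and rests on 2 reads in A375+DMSO. In A375+VEM the level of ADD3-AS1 was still only 3.15 TPM. Exons of ADD3 held 2.71% of its exon bases in GRCh38.

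ARSD-AS1 (chrX:2822945-2824163, plus strand), within the arylsulfatase D gene, was 3.64-fold higher in the acute comparison (2.22 to 6.22), at 2.45, 2.11, 3.06 and 11.2 TPM in the 4 libraries. ARSD was 1.23 higher on the log2 scale in that comparison. In GRCh38 100% of the exon bases of ARSD-AS1 lay in exons of ARSD, so without strand its reads cannot be told apart from those of ARSD. ALOX12-AS1 (chr17:6888442-6915653, minus strand) spans the 12-lipoxygenase gene and stood at 2.87, 1.39, 3.84 and 8.12 TPM. It was 2.11-fold higher in the acute comparison (1.21 to 3.80), beside a log2 ratio of 1.13 of ALOX12. Its ratio in the resistance comparison was 0.484, with an interval that includes 1 (0.168 to 1.24). Exons of ALOX12 held 15.3% of the exon bases of ALOX12-AS1 in GRCh38. A2M-AS1 (chr12:9217773-9220651, plus strand) had 6, 7, 13 and 25 reads, while A2M, which encodes the protease inhibitor alpha-2-macroglobulin, stood at 2.14, 5.32, 11.7 and 73.7 TPM. The ratio of A2M-AS1 in the acute comparison was 1.94, with an interval that includes 1 (0.954 to 4.12), and the quotient of lncRNA to sense gene was 0.306 of that in A375+DMSO (0.150 to 0.657). Exons of A2M held 19.9% of the exon bases of A2M-AS1 in GRCh38.

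Other pairs moved together in the resistance comparison. ACTA2-AS1 (chr10:90692441-90699731, plus strand) stood at 4.23 TPM in A375P and at 1.01, 1.78 and 2.28 in A375R, A375+DMSO and A375+VEM, beside 92.2, 35.0, 28.3 and 40.1 TPM of ACTA2, the smooth muscle actin gene. Both genes were highest in A375P, and the ratio of the lncRNA in the resistance comparison was 0.239 (0.130 to 0.415). Exons of ACTA2 held 16.2% of the exon bases of ACTA2-AS1 in GRCh38. BSN-AS2 (chr3:49586739-49591799, minus strand) shares 210 bases of its start window with that of BSN, the gene of the presynaptic scaffold Bassoon. BSN-AS2 had 46, 18, 17 and 8 reads, or 2.06, 0.893, 0.817 and 0.387 TPM, where BSN stood at 2.06, 0.777, 0.979 and 3.06. The genes thus went down together from A375P to A375R and A375+DMSO but lay apart in A375+VEM, where the quotient of lncRNA to sense gene was 0.152 of that in A375+DMSO (0.0555 to 0.383).

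AGAP2-AS1 (chr12:58120023-58122139, plus strand), within AGAP2, was 1.83-fold higher in the resistance comparison (1.54 to 2.17), at 16.7, 30.5, 25.1 and 26.7 TPM. AGAP2 stood at 1.05, 2.99, 8.32 and 7.65 TPM, and 57.7% of the exon bases of the lncRNA lay in its exons in GRCh38. ADAMTSL4-AS1 (chr1:150533371-150547028, minus strand) and ADAMTSL4, the gene of a protein of extracellular microfibrils, were both higher in A375R than in A375P. The lncRNA had 21, 32, 15 and 15 reads, and its ratio of 1.69 has an interval that includes 1 (0.943 to 3.08). ADAMTSL4 stood at 8.65, 31.6, 49.0 and 63.1 TPM, and its exons held 28.1% of the exon bases of ADAMTSL4-AS1 in GRCh38. In A375R against A375+DMSO the genes were past 1.5-fold in opposite directions. The ratio there was 2.20 for ADAMTSL4-AS1 (1.16 to 4.38) and 0.645 for ADAMTSL4. ANO1-AS2 (chr11:69918540-69921454, minus strand) starts 2954 bases from ANO1, the gene of a calcium-activated chloride channel, and does not overlap it. It was highest in A375R, at 5.51, 15.6, 6.07 and 6.58 TPM, and was 2.83-fold above A375P (1.92 to 4.23). ANO1 stood at 29.7, 44.8, 14.7 and 4.72 TPM, so in A375+VEM it was lower while the lncRNA differed from A375+DMSO by a ratio of 1.08 (0.684 to 1.72).

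ABHD11-AS1 (chr7:73149399-73150330, plus strand) parted from its partner with acute vemurafenib. The gene ABHD11, which encodes a mitochondrial hydrolase, ends 93 bases away from it in the table without overlap. Exons of ABHD11 held 9.82% of the exon bases of ABHD11-AS1 in GRCh38. ABHD11-AS1 had 4, 16, 6 and 63 reads in A375P, A375R, A375+DMSO and A375+VEM, where ABHD11 stood at 4.78, 17.5, 19.1 and 12.4 TPM. In A375R both genes were higher than in A375P, by 2.04 and 1.85 on the log2 scale. In the acute comparison the lncRNA was higher by 3.32 while the log2 ratio of ABHD11 was -0.62. The quotient of lncRNA to sense gene was therefore 16.3 times higher with vemurafenib (6.88 to 46.8), and in A375+VEM the lncRNA, at 16.8 TPM, was above ABHD11. The other pair past 1.5-fold in opposite directions in that comparison was AZIN1-AS1 with AZIN1, the gene of an inhibitor of antizyme that raises polyamine synthesis. AZIN1-AS1 had 21, 16, 25 and 42 reads, and its ratio was 1.69 (1.01 to 2.90), beside a log2 ratio of -0.62 of AZIN1, which stood at 112, 130, 104 and 67.5 TPM.

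BDNF-AS (chr11:27528399-27719718, plus strand) runs across BDNF, which encodes a neurotrophin, and is known as a repressor of BDNF in other cells. It stood at 1.72, 0.677, 0.861 and 2.68 TPM in A375P, A375R, A375+DMSO and A375+VEM, while BDNF stood at 21.8, 4.51, 2.59 and 2.12. BDNF was highest in A375P, whereas the lncRNA was highest in A375+VEM. In the resistance comparison both were lower, with a ratio of 0.394 for BDNF-AS (0.208 to 0.710) and a log2 ratio of -2.25 for BDNF. In the acute comparison the lncRNA was 3.12-fold higher (1.88 to 5.37), BDNF had a log2 ratio of -0.28, and the quotient was 3.81 times higher (2.16 to 6.90). The quotient also differed between the libraries without vemurafenib, by 4.22 (2.32 to 7.43) in the solvent comparison. Exons of BDNF held 18.8% of the exon bases of BDNF-AS in GRCh38.

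BOLA3-AS1 (chr2:74375108-74379516, plus strand) shares 168 bases of its start window with that of BOLA3, which encodes a factor for mitochondrial iron-sulfur clusters. BOLA3-AS1 stood at 10.5, 16.0, 13.7 and 6.64 TPM in A375P, A375R, A375+DMSO and A375+VEM, and BOLA3 at 93.3, 58.5, 59.8 and 23.9. In the resistance comparison they went past 1.5-fold in opposite directions, with a ratio of 1.53 for the lncRNA (1.34 to 1.75) and a log2 ratio of -0.67 for BOLA3. The log2 ratio of BOLA3-AS1 there, 0.61, was within 1.5-fold under each of the 3 other scalings (0.51 to 0.53) and with a pseudocount of 1 (0.57), and was 0.23 in A375R against A375+DMSO. In the acute comparison they were lower together, the lncRNA with a ratio of 0.486 (0.412 to 0.572) and BOLA3 with a log2 ratio of -1.32. ARHGAP31-AS1 (chr3:119033140-119041607, minus strand), within ARHGAP31, was the other pair that parted in A375R. ARHGAP31-AS1 had 22, 7, 20 and 17 reads and a ratio of 0.352 in the resistance comparison (0.127 to 0.854), where ARHGAP31 was 0.69 higher on the log2 scale. ARHGAP31 was also highest in A375+VEM, at 28.5 TPM after 7.58, 12.3 and 10.0 in A375P, A375R and A375+DMSO.

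BACE1-AS (chr11:117162062-117162886, plus strand) lies within BACE1, the gene of beta-secretase, and is known to stabilise the BACE1 mRNA. BACE1-AS stood at 9.05, 5.32, 7.58 and 6.56 TPM in A375P, A375R, A375+DMSO and A375+VEM, and BACE1 at 56.5, 39.8, 49.4 and 170. In the resistance comparison both had lower values, with a ratio of 0.588 for BACE1-AS (0.376 to 0.905) and 0.704 for BACE1 (0.664 to 0.747), and the quotient was 0.835 (0.532 to 1.29). The sense gene was 1.79 higher on the log2 scale with acute vemurafenib, while BACE1-AS had a ratio of 0.866 with an interval that includes 1 (0.562 to 1.33). The quotient of lncRNA to sense gene in A375+VEM was 0.251 of that in A375+DMSO (0.162 to 0.386). Exons of BACE1 held 40% of the exon bases of BACE1-AS in GRCh38. ATP6V1B1-AS1 (chr2:71169143-71175741, minus strand), within a gene of the vacuolar proton pump, was highest in A375P, at 20.4, 10.7, 6.09 and 8.40 TPM, where ATP6V1B1 was highest in A375+VEM, at 1.62, 2.07, 1.74 and 5.33. In the resistance comparison the quotient of this pair was 0.412 (0.220 to 0.769).

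**Figure D5:**
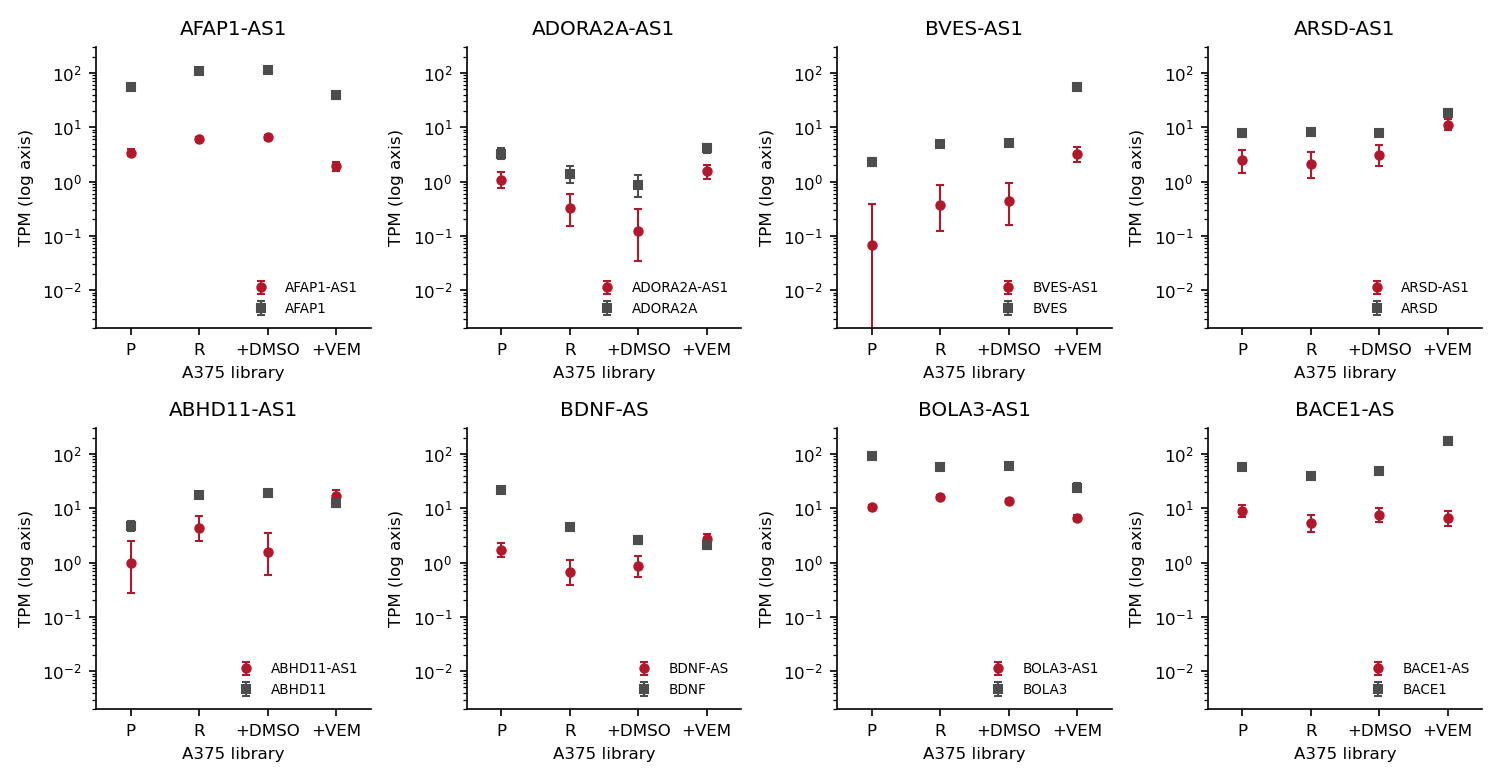
TPM of 8 antisense lncRNAs (circles) and of their sense genes (squares) in the 4 libraries, on a log axis with exact 95% Poisson intervals of the reads, which cover counting error only. In the upper row both genes are past 1.5-fold in the same direction in the acute comparison, as AFAP1-AS1 at 1.91 and AFAP1 at 39.1 TPM in A375+VEM, and in the lower row they part in at least 1 comparison, as ABHD11-AS1 at 16.8 and ABHD11 at 12.4 TPM in A375+VEM.

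Some lncRNAs differed between libraries while the sense gene stayed within 1.5-fold in both comparisons. BAIAP2-AS1 (chr17:79002933-79008519, minus strand) stood at 3.43, 7.30, 13.3 and 23.7 TPM in A375P, A375R, A375+DMSO and A375+VEM, with a different level in each library. BAIAP2, which shares 69 bases of the start windows and encodes an adaptor that bends membranes at actin protrusions, stood at 18.8, 17.4, 17.1 and 25.5 TPM. The quotient of lncRNA to sense gene was 2.30 times higher in A375R than in A375P (1.81 to 2.94), and 4.25 times higher in A375+DMSO than in A375P (3.40 to 5.34). In the acute comparison the quotient was only 1.19 times higher (1.02 to 1.39). BAIAP2 was there 1.49-fold higher (1.35 to 1.65), just within the threshold, and BAIAP2-AS1 1.78-fold (1.58 to 1.99). ARHGAP5-AS1 (chr14:32544625-32545905, minus strand) stood at 4.74, 8.67, 24.8 and 28.5 TPM, and ARHGAP5 at 21.6, 22.7, 29.3 and 35.0. ARHGAP5-AS1 was 5.23-fold higher in the solvent comparison (3.87 to 7.20), and 1.15-fold higher in the acute comparison (0.968 to 1.37).

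ARRDC1-AS1 (chr9:140509784-140513347, minus strand) was just past the threshold in the acute comparison, with a ratio of 1.51 (1.35 to 1.69), and was within 1.5-fold under each of the 3 other scalings. It stood beside a log2 ratio of 0.26 of ARRDC1, an arrestin-domain gene. ASB16-AS1 (chr17:42253341-42264085, minus strand) was 1.60-fold higher there (1.34 to 1.92), again within 1.5-fold under each of the 3 other scalings, at 7.54, 10.3, 11.0 and 17.6 TPM in the 4 libraries, and was above ASB16, at 2.95, 2.84, 4.33 and 6.30, in each. A1BG-AS1 (chr19:58863336-58866549, plus strand) was 1.64-fold higher in the resistance comparison (1.33 to 2.03), beside a log2 ratio of 0.35 of A1BG, the gene of a plasma glycoprotein. BCDIN3D-AS1 (chr12:50222326-50234937, plus strand) was lower in A375+VEM than in A375+DMSO, with a ratio of 0.595 (0.458 to 0.768), while the RNA methyltransferase gene BCDIN3D had a log2 ratio of -0.01. These 4 lncRNAs rest on 98 to 765 reads a library.

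The rest of the changed lncRNAs rest on few reads. BBOX1-AS1 (chr11:27068733-27241660, minus strand) had 0, 0, 4 and 28 reads, a ratio in the acute comparison of 7.05 (2.47 to 27.7), and BBOX1, the gene of the last enzyme of carnitine synthesis, stayed under 1 TPM in every library. C21orf62-AS1 (chr21:34144411-34170017, plus strand) had 2, 2, 5 and 23 reads and a ratio there of 4.63 (1.72 to 15.6), and C21orf62 was also under 1 TPM throughout. Both lncRNAs were thus seen mainly with acute vemurafenib, next to a sense gene under 1 TPM. BBOX1 too had most of its reads there, with 3, 0, 0 and 14 reads and 0.935 TPM in A375+VEM. C21orf62 had 2, 1, 8 and 3 reads. BOK-AS1 (chr2:242483799-242498558, minus strand) had 8, 0, 15 and 3 reads. With the 0 reads of A375R set to a floor of 3, it was 2.41-fold lower there than in A375P. That value takes the 8 reads of A375P as exact and is not a lower limit. Its ratio in the acute comparison was 0.201 (0.0374 to 0.712), while BOK, a gene of the BCL2 family, stood at 12.7, 18.0, 18.0 and 14.2 TPM. ATE1-AS1 (3, 3, 5 and 13 reads) was past 1.5-fold in the acute and BRE-AS1 (20, 8, 8 and 11 reads) in the resistance comparison, with intervals that include 1 (0.876 to 9.38 and 0.169 to 1.05). ATE1, the gene of arginyltransferase, and BRE, of a complex that binds BRCA1, were within 1.5-fold in these comparisons.

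Of the 16 other lncRNAs at 1 TPM or more in a library, 14 were within 1.5-fold or under 1 TPM in both comparisons of the study. BAALC-AS1 had 1, 1, 1 and 8 reads in A375P, A375R, A375+DMSO and A375+VEM, and BIRC6-AS2 had 0, 3, 6 and 2. Levels differed little for ADNP-AS1, at 5.77, 5.76, 5.94 and 6.84 TPM, ADPGK-AS1, at 2.86, 3.22, 3.16 and 2.86, and CACTIN-AS1, at 11.9, 9.25, 11.9 and 10.3. C1RL-AS1 stood at 3.16, 3.87, 3.91 and 3.15 TPM while C1RL, a complement-related protease gene, stood at 7.45, 13.8, 16.0 and 28.1. AP4B1-AS1 lay at 4.67, 4.93, 3.84 and 3.58 TPM, ATP6V0E2-AS1 at 4.26, 5.56, 3.87 and 2.83, and ACVR2B-AS1 at 1.76, 2.46, 2.78 and 2.15. ASH1L-AS1 lay at 4.34, 4.80, 6.88 and 8.40 TPM, ARF4-AS1 at 2.98, 2.83, 4.79 and 3.91, ARRDC3-AS1 at 0.933, 0.620, 1.65 and 1.26, ATP2B1-AS1 at 0.311, 0.776, 1.33 and 1.64, and APOA1-AS at 0.207, 0.688, 1.11 and 1.57. These last 5, ATP2A1-AS1, ACVR2B-AS1 and BIRC6-AS2 were past 1.5-fold in the solvent comparison.

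The lncRNAs with reads that stayed under 1 TPM were AATK-AS1, ABCA9-AS1, ABCC5-AS1, ACOXL-AS1, ACTN1-AS1, ADAMTS19-AS1, ADAMTS9-AS2, ADARB2-AS1, ADIPOQ-AS1, AFDN-AS1, AGBL5-AS1, ALDH1L1-AS1, ALDH1L1-AS2, ALKBH3-AS1, APCDD1L-AS1, AQP4-AS1, ARHGAP26-AS1, ARHGEF26-AS1, ARHGEF7-AS2, ARMC2-AS1, ARNTL2-AS1, ASMTL-AS1, ATP11A-AS1, ATP13A4-AS1, B3GALT5-AS1, B4GALT1-AS1, B4GALT4-AS1, BARX1-AS1, BEAN1-AS1, BFSP2-AS1, BHLHE40-AS1, BRWD1-AS1, BTBD9-AS1, C1QTNF1-AS1, C2-AS1, C20orf166-AS1, C3orf67-AS1, C5orf66-AS2, C8orf37-AS1, C9orf41-AS1, CACNA1C-AS1, CACNA1C-AS2, CACNA1G-AS1 and CACNA2D3-AS1. No read was counted for AADACL2-AS1, ADAMTS9-AS1, ADGRA1-AS1, ADGRL3-AS1, AGBL1-AS1, ANKRD34C-AS1, APOBEC3B-AS1, ARHGEF3-AS1, ARHGEF7-AS1, ASTN2-AS1, ATP13A5-AS1, BAALC-AS2, BMP7-AS1, BMPR1B-AS1, C10orf71-AS1, C15orf59-AS1, C5orf64-AS1, C5orf66-AS1, C8orf34-AS1, C9orf135-AS1, CA3-AS1 and CACNA1C-AS4.

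The labelled cell type was checked against marker genes among the rows analysed. Of 8 genes linked to the pigment cell factor MITF, 6 to 8 were at 1 TPM or more in each library, with a summed level of 78.4 to 143 TPM. The 4 macrophage genes were all under 1 TPM, C1QA with no read in any library, and ADIPOQ of adipocytes was at most 0.0252 TPM. All 3 hepatocyte genes were at 1 TPM or more, with ALB at 46.4 to 64.5 TPM and a summed level of 58.4 to 78.2, and 1 of them, APOA1, is the sense gene of APOA1-AS. The summed level of ACTA2 and ACTG2 was 28.5 to 92.5 TPM. The part of other cells in any value above was not tested.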

How the data were processed

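RNA of 4 A375 libraries was sequenced, 1 per condition, and groups follow the sample labels. The authors deposited 1 table with a whole-number read count and a TPM for each gene and library. In the deposited TPM each count is divided by the length of the gene and scaled over the whole library. The submitters' processing notes name HISAT2, HISAT, TopHat2, Bowtie2 and hg19 without their roles, and the counting program and its strand setting are not given in the sources used here. The rows analysed run alphabetically to names in CAC. Its 1 incomplete row was left out, which left 2864 rows. The counts of these rows sum to 1891215 to 2054277 per library, which is part of a library and not its depth. Columns of the authors' own comparisons hold fold changes and p-values and were not used.

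Members were the rows of type lncRNA or antisense_RNA whose symbol ends in -AS or -AS and a digit. They, the marker lists and the tests were chosen with earlier results of these data known. The measure was the log2 ratio of (TPM + 0.1) among features that reached 1 TPM in either library, and a change was called past 1.5-fold. Other folds and ratios are of the TPM itself, with nothing added. Intervals (95%, exact Clopper-Pearson) were taken on the reads and scaled by the constant behind each library's TPM, and reads of PCR copies are not independent molecules. For the quotient of lncRNA to sense gene a conditional exact interval of the odds ratio was used, in which the library scaling cancels. Against 0 reads the floor was 3 reads per library. Described in full were the 30 members past 1.5-fold in the resistance comparison or in the acute comparison with at least 10 reads in the higher library, and the rest are given by level or name. Of these, 1 lncRNA is not reported here. Positions are those of the table, on hg19 per the labels. Exon sharing was computed within GENCODE release 29 by gene name, and start windows were taken from RefSeq (GRCh38.p14) by gene ID, with no positions converted between builds. RefSeq gives other symbols for BAIAP2-AS1 (BAIAP2-DT), BOLA3-AS1 (BOLA3-DT), BSN-AS2 (BSN-DT) and BVES-AS1 (POPDC1-AS1).

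The ratio step was tested on simulated data for 2864 features. Where 200 of them were changed 3-fold, it called 99.5% in the right direction for the resistance comparison and 100% for the acute comparison, with 40 and 51 of the other features past the threshold. The changed features were drawn from those that averaged 1 TPM or more. The simulated counts held counting error only and no variation between cultures, so these numbers are not error rates of the real comparisons. As alternatives, pseudocounts of 1 and 0.01, the unfiltered table, a minimum of 5 TPM or of 10 reads, scaling to a median ratio of 1, by edgeR's TMM or by DESeq2's size factors, a 2-fold threshold, the other control library, and pairs that do not overlap were tried. The tools were edgeR 4.0.16 and DESeq2 1.42.0 under R 4.3.3, and scipy 1.17.1, numpy 2.4.6, matplotlib 3.10.9 and pandas 2.3.3 under Python 3.11.15.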

Additional observations from a re-analysis of the deposited data

Results flagged for a closer look

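In 5 antisense lncRNAs the log2 ratio of (TPM + 0.1) was past 1.5-fold in one direction in the resistance comparison and past it in the other direction in the acute comparison. Each group is 1 library, and the difference between the comparisons was not tested. The same count over all features was not taken. ADORA2A-AS1 had -1.48 and 2.86, ALOX12-AS1 had -0.995 and 1.06, and BDNF-AS had -1.23 and 1.53, all lower in A375R and higher with acute vemurafenib. AFAP1-AS1 had 0.80 and -1.74 and BOLA3-AS1 had 0.61 and -1.03, both higher in A375R and lower with acute vemurafenib. The value of BOLA3-AS1 in the resistance comparison was within 1.5-fold under median, TMM and DESeq2 scaling, at 0.51, 0.53 and 0.53, and was 0.23 against A375+DMSO. The interval of ALOX12-AS1 in the resistance comparison includes 1. In A375R against A375+DMSO the log2 ratio was -0.13 for AFAP1-AS1, 0.91 for ADORA2A-AS1 and -1.40 for ALOX12-AS1. ADORA2A-AS1 and BDNF-AS were under 1 TPM in both of these libraries.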

How the results depend on the processing

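The 9 counts of the 3 comparisons (lncRNAs higher, lncRNAs lower and pairs of the same sign) were recomputed under the alternatives, which gave 87 counts, and 63 of these stayed within 1.5 times of the value reported. Counts are given for the resistance, the acute and the solvent comparison, in that order. Without a filter on low values, which adds genes with very few reads, 30, 28 and 35 lncRNAs were higher, 19, 18 and 15 lower, and 46, 47 and 44 of 110 pairs had the same sign. At 5 TPM or more, which leaves fewer genes, the pairs of the same sign were 7 of 12, 13 of 20 and 7 of 13; the lncRNAs lower were 2 (of 16), 3 (of 20) and 1 (of 16), and those higher were 7 in the second and 5 in the third comparison. Among pairs that do not overlap, the same sign was found in 5 of 8, 4 of 9 and 3 of 9. A 2-fold threshold left 3 higher in the first and 5 in the third comparison, and a pseudocount of 1 left 8 in the third. Against A375+DMSO, 4 lncRNAs were higher in A375R. Pseudocounts, a minimum of 10 reads and the 3 other scalings moved no other count past 1.5 times. Scaling by TMM or DESeq2 factors took the median log2 ratio of all features from 0.10, 0.11 and 0.09 to 0.03, -0.04 and 0.02, or to 0.02, 0.00 and 0.00.

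Of 312 values of single lncRNAs under these alternatives 280 stayed within the counting interval, 25 moved outside it in the same or an uncalled direction, and 7 turned. All 7 did so where A375R was set against A375+DMSO, with log2 ratios of 0.91 for ADORA2A-AS1, -0.13 for AFAP1-AS1, -1.50 for ARHGAP5-AS1, 0.80 for ATP6V1B1-AS1, -0.86 for BAIAP2-AS1, 0.040 for BRE-AS1 and 0.12 for BSN-AS2. ADORA2A-AS1, BRE-AS1 and BSN-AS2 were under 1 TPM in both of these libraries. Without a change of direction, BOLA3-AS1 in the resistance comparison and ARRDC1-AS1 and ASB16-AS1 in the acute comparison came within 1.5-fold under the 3 other scalings, and ADAMTSL4-AS1, BOLA3-AS1, BRE-AS1, A2M-AS1 and ARRDC1-AS1 did so with a pseudocount of 1. The cause was not tested. No paired analysis was possible because each condition has 1 library and no result comes from a test. Depth limits lncRNAs under about 10 reads, where 1 library's counting error alone spans several fold.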
